A study of Rattus norvegicus with 8 samples.

Results

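The lncRNAs described here are those known from a catalogue and lying between genes in rat thoracic aorta. They were chosen as the transcripts of the deposited lncRNA table whose name carries the NONRATT prefix of the NONCODE catalogue and whose locus shares no base with the locus of any gene in the deposited gene table. The rule uses names and positions. Because both tables list only features with at least 1 count, a transcript over a gene without counts is also kept. It kept 4630 of the 24300 transcripts in the lncRNA table, which is 23.0% of its 20103 catalogue transcripts. Of the others, 15473 were catalogue transcripts that overlapped a gene, 881 were Ensembl lncRNAs and 3316 were newly assembled. The 4630 transcripts form 4326 loci once overlapping ones are merged, and 526 of them share a locus with another. In addition, 324 overlap a transcript of another class of the lncRNA table, so that reads in those places could have been counted to either.

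Total RNA was sequenced from the thoracic aorta of 4 control Wistar rats and 4 diabetic Goto-Kakizaki (GK) rats, all 7 to 8 weeks old. Wistar is an outbred laboratory strain. GK is an inbred, non-obese strain that was bred from Wistar rats for high blood glucose. No other treatment is named for either group. The control libraries and the GK libraries are both numbered 7 to 10. Strain and diabetes follow the same split here, so a difference between the groups cannot be assigned to one of them. Groups follow the sample titles, which the strain and group labels match, but 1 label, the source name, reads GK for all 8 samples, controls included. Each title names 1 rat, with no further statement on how tissue was taken, so p-values measure the spread between these libraries.

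Long non-coding RNAs are transcripts that are not translated into protein. Those that lie between genes, often called lincRNAs, include nuclear RNAs made in large amounts by nearly every cell, RNAs that carry small RNAs within them, and many low transcripts whose work is not known. In the aorta, where smooth muscle, endothelium, fibroblasts and the surrounding fat each have their own transcripts, such RNAs are often described by the gene beside them. Many lncRNAs are made near genes whose level varies with their own.

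No sequence of the lncRNAs themselves was used here, since the loci are given without strand and no genome of their build was at hand. Promoters of the genes beside them stand in, as RefSeq lists them for assembly GRCr8, from 250 bases before to 50 bases after the start. A promoter was listed for 2200 of the 3379 gene symbols that were nearest to at least 1 of these lncRNAs. Shown are the promoters of 2 genes that rose in GK together with the lncRNA next to them (Lrrc8b and Itpkb). Also shown are those of 1 gene that rose while its lncRNA fell (Crem), and of Carmn, a lncRNA of smooth muscle. RefSeq places Carmn between Csnk1a1 and Il17b, and in the deposited positions Il17b is a flanking gene of 2 of the 8 most abundant loci. Capitals mark any match, on either strand, to the TATA box (TATAAA), the CAAT box (CCAAT), the letters that Sp1 proteins bind (GGGCGG), the cyclic AMP response element (TGACGTCA) or the CArG box of smooth muscle genes.
Lrrc8b, chr14:4721027-4721326, minus strand: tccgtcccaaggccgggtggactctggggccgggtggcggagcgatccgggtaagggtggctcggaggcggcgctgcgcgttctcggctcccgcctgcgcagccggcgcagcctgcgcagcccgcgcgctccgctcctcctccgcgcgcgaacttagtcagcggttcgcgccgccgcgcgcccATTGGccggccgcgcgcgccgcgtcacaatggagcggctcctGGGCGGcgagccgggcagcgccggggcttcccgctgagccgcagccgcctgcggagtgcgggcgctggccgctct
Itpkb, chr13:94600900-94601199, plus strand: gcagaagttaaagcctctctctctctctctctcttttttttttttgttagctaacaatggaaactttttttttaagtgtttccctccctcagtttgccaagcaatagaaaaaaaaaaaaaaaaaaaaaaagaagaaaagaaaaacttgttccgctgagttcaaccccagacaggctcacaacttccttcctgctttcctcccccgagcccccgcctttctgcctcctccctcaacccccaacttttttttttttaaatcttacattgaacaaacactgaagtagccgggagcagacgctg
Crem, chr17:58985240-58985539, plus strand, the third of 3 listed: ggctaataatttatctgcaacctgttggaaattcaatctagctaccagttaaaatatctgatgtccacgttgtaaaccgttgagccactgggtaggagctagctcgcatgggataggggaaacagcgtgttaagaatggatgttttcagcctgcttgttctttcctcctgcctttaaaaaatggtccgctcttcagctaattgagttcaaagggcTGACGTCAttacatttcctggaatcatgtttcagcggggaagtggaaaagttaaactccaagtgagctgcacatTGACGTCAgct
Carmn, chr18:57389063-57389362, minus strand: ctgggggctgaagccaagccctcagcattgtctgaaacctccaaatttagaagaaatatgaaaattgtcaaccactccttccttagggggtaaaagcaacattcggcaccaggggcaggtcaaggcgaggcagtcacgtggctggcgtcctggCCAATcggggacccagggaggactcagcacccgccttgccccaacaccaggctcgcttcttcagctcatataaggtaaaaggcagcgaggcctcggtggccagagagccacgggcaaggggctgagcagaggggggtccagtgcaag
The Lrrc8b promoter is 78.3% G and C and holds 1 CAAT box, read on the opposite strand, and 1 match to the Sp1 letters. The Carmn promoter is 58.3% G and C and holds 1 CAAT box. The Itpkb promoter is 41.0% G and C, and none of the 5 motifs was found in this window. This Crem promoter holds TGACGTCA, the element that the Crem protein binds, at bases 216 to 223 and 290 to 297 of the 300 shown. It is the one with the most matches to this element: of the other 2 listed Crem promoters, the second holds this element 1 time and the first holds 3 matches to the Sp1 letters and no such element. Of 33469 listed promoters of this length, the cyclic AMP response element is in 1.83%, the CArG box in 1.64%, the TATA box in 14.2%, the Sp1 letters in 33.1% and the CAAT box in 37.5%. A match describes letters only. These coordinates belong to GRCr8, while the coordinates given below for the lncRNAs are those of the deposited tables, for which no source used here states the rat build.

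Gene counts summed to between 11760397 and 16266151 a library, and lncRNA counts to between 1185872 and 2031376. Both libraries numbered 9 stood apart in scaling factor in the gene table (1.24 in control and 1.18 in GK, against 0.826 to 1.09 in the other 6). Levels of cell type markers differed in range between the groups. Summed smooth muscle markers ranged from 4584 to 12275 CPM (counts per 1000000 counts of the gene table, after scaling) in controls and from 2324 to 6381 in GK, with 1 of 6 lower by the test described below. Summed fibroblast markers ranged from 2980 to 6286 CPM in controls and from 790 to 3068 in GK, with 2 of 5 lower. Summed adipocyte markers ranged from 4371 to 7057 CPM in controls and from 6076 to 13379 in GK, with 1 of 5 higher, and brown adipocyte markers from 489 to 2738 and from 1366 to 4681, with none of the 3 tested passing. Endothelial markers ranged from 503 to 802 CPM in controls and from 825 to 1049 in GK, with 1 of 4 higher. Muscle markers of skeleton and heart reached 14389 CPM in GK library 9, against 13.8 to 1308 in the other 7. The lists for this muscle, macrophages, nerve and liver had no member past the test. The part of tissue makeup in the results below was not tested, and in bulk tissue fewer cells of a type and less RNA per cell cannot be told apart.

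Most of these lncRNAs were short, unspliced and low. The median length was 696 bases (quartiles 491 and 1077), and 74.0% were unspliced, in that the span of the locus equalled the transcript length. The unspliced share was 39.7% for catalogue transcripts over genes, 4.09% for Ensembl lncRNAs and 0 for assembled ones. The median of the mean FPKM (fragments per kilobase of transcript and 1000000 fragments, as deposited) was 0.845 (quartiles 0.185 and 3.42), against 0.826 for catalogue transcripts over genes, 0.173 for Ensembl lncRNAs, 1.74 for assembled ones and 3.90 for genes. A mean of at least 1 FPKM was reached by 2164, and at least 10 FPKM by 377. The unspliced transcripts were higher, with a median of 1.12 FPKM against 0.379 for the 1203 spliced ones, and lay nearer to a gene, at a median of 2955 bases against 10230.

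Detection was broad but thin. All 8 libraries held a count for 2771 of the transcripts (59.8%), 183 were seen in 1 library, and 998 had fewer than 10 counts in all. The median total was 66 counts over the 8 libraries. A few transcripts held most of the signal: 11 held 50% of all counts of these lncRNAs and 680 held 90%. Their share of all lncRNA counts was 35.1% ± 1.88 (SD, n = 4) in controls and 36.8% ± 1.81 (n = 4) in GK. The ranges overlapped, and the difference was within the spread between libraries (two-sided exact permutation test, p = 0.286; the smallest p that 4 against 4 allows is 0.0286).

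**Figure D1:**
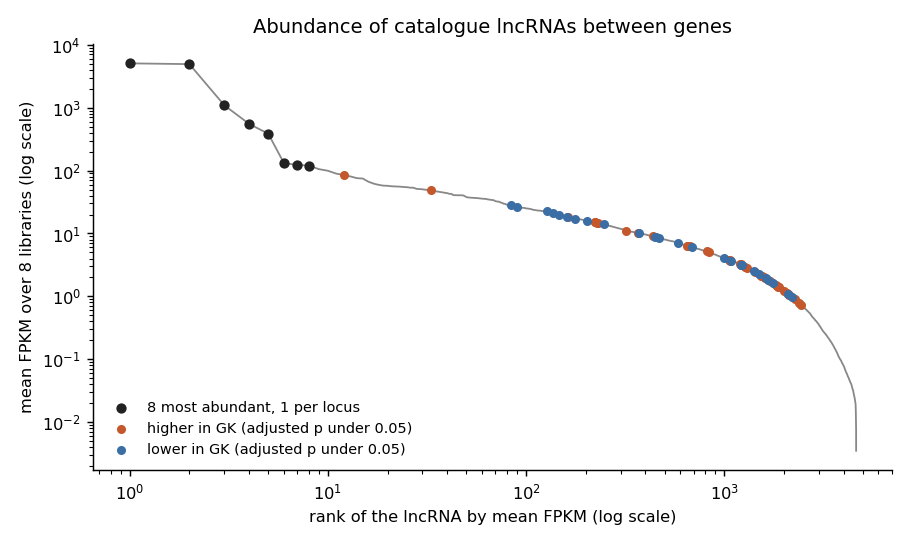
Mean FPKM over the 8 libraries (vertical, log scale) of each catalogue lncRNA between genes against its rank (horizontal, log scale). Black points are the 8 most abundant loci, orange and blue points are transcripts that were higher or lower in GK by the test. The 4 highest transcripts lie between 553 and 5061 FPKM. The changed transcripts lie below the most abundant loci, and nearly all are above the median of 0.845 FPKM. Only transcripts with enough counts were tested, and those had a median of 3.67 FPKM, so a place above 0.845 mostly follows from the filter.

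Among the most abundant transcripts, NONRATT003473.2, 9036 bases from Frmd8, a membrane protein partner, had 464, 328, 411 and 524 FPKM in control libraries 7 to 10 and 698, 755, 615 and 626 FPKM in GK libraries 7 to 10. Every GK library was above every control. The log2 fold change was 0.94 ± 0.22 (SE), but the adjusted p was 0.0649, by edgeR's quasi-likelihood F-test and Benjamini-Hochberg correction over the whole table, GK against control here and below. The fold change is on counts scaled to the lncRNA table (CPM of that table, means 11363 ± 1233 and 21725 ± 4408, SD, n = 4 each). The FPKM means were 432 ± 83.3 and 673 ± 65.7, a log2 ratio of 0.64, and scaling by the totals of the gene table gave a log2 fold change of 0.81 (adjusted p = 0.11). Over 2165 tested lncRNAs the log2 ratio of mean FPKM was lower than the fitted log2 fold change by a median difference of -0.24, so FPKM values set side by side below mostly give smaller rises and larger falls than the fits. The 3 transcripts of higher abundance did not pass the test, with log2 fold changes of 0.07 to 0.20 (adjusted p from 0.774 to 0.902). NONRATT003472.2 and NONRATT003471.2, on the same side of Frmd8 and named after their values were seen, had -0.39 ± 0.26 and -0.75 ± 0.27 (adjusted p = 0.48 and 0.196).

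Other abundant transcripts lay beside genes of metabolism and of smooth muscle and pericytes. NONRATT021220.2 (chr4:30544835-30546060) lies 604 bases from Pdk4, the kinase that switches off pyruvate dehydrogenase when fat is burned. It had 460, 365, 121 and 395 FPKM in controls and 562, 453, 201 and 527 FPKM in GK. Library 9 was the lowest in both groups, for this lncRNA and for Pdk4 (211 CPM in control 9 against 726 to 829 in the other controls, 350 CPM in GK 9 against 799 to 1084 in the other GK libraries). NONRATT008436.2 lies 1469 bases from Rgs5, a regulator of G protein signalling known from pericytes and arterial smooth muscle, and was highest in library 9 of both groups (261 and 216 FPKM). Neither lncRNA passed the test (log2 fold changes 0.68 ± 0.53 and -0.06 ± 0.35).

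NONRATT013854.2 (chr18:56970209-56972067) and NONRATT013853.2 (chr18:56968115-56969908) lie beside each other. Their nearest listed gene is the gene model AABR07032255.2, at 4510 and 2416 bases, which was too low for the test. On the other side lies Il17b, a cytokine gene, at 39508 and 41667 bases. Between Csnk1a1 and Il17b RefSeq places Carmn, Mir145 and Mir143, a lncRNA and 2 microRNAs known from smooth muscle. Positions were not carried over between builds, so whether these transcripts match any of them was not tested. NONRATT013854.2 had 74.2, 120, 212 and 231 FPKM in controls and 40.4, 73.8, 129 and 107 FPKM in GK. GK library 7 was lowest and control 10 highest, as for the smooth muscle markers (2324 and 12275 CPM), and the groups overlapped. Its log2 fold change was -0.59 ± 0.39 (adjusted p = 0.469), and that of NONRATT013853.2 was -0.47 ± 0.37 (adjusted p = 0.554). A transcript farther along, NONRATT013855.2, named here after its values were seen, ran from 21.1 to 122 FPKM in controls and from 6.67 to 29.3 FPKM in GK (log2 fold change -1.51 ± 0.55, adjusted p = 0.196).

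The lncRNAs were spread over all chromosomes except Y, from 96 on chromosome 20 to 542 on chromosome 1. As a share of the catalogue transcripts on a chromosome they were fewest on chromosome 10 (19.5%) and most on chromosome 13 (31.1%). Distance to the nearest listed gene had a median of 3716 bases (quartiles 990 and 20664), with a largest value of 2543122. Within 1000 bases of a gene lay 1165 transcripts, and 1417 lay from 1000 to 5000 bases away. The gene table lists only genes with at least 1 count, so an unlisted gene may lie nearer. Abundance was lower farther from genes, from a median of 1.47 FPKM within 1000 bases and 1.55 FPKM at 1000 to 5000 bases to 0.568 FPKM at 5000 to 20000, 0.336 FPKM at 20000 to 100000 and 0.205 FPKM beyond.

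The genes nearest to these lncRNAs held more transcription factors than the gene table as a whole. By gene ontology terms or product descriptions, transcription factors made up 6.26% of 3433 nearest genes, 6.93% of those within 5000 bases, and 3.94% of all listed genes. Shares of the other lists were close to those of all genes: 1.60% against 1.55% for extracellular matrix, 4.69% against 4.71% for receptors and channels, and 7.14% against 7.41% for mitochondrial genes. These shares are descriptions without a test. Among tested genes nearest to any of these lncRNAs, tested or untested, 10 of 48 extracellular matrix genes were lower in GK and 2 higher. In the same set, 12 of 235 mitochondrial genes were higher and 1 lower. Of 193 transcription factors 6 were higher and 11 lower, and of 114 receptors and channels 5 were higher and 4 lower. The like counts over all genes of each list are not given here, so they cannot be read as a trait of the neighbours. A narrower set is that of the 1581 tested genes nearest to a lncRNA that was itself tested. In it 110 changed (67 higher, 43 lower), or 6.96%, near the 7.28% of all tested genes (3.96% higher and 3.31% lower).

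Which of these lncRNAs differed between GK and control aorta was asked of the 2166 with enough counts for a test, since 2464 had too few. In all, 66 passed at an adjusted p under 0.05, of which 40 were higher and 26 lower in GK. That is 3.05% of those tested, near the 2.74% of the whole lncRNA table (320 of 11683). The 2 directions were also near the table, with 1.85% higher against 1.63% and 1.20% lower against 1.11%. All 66 had groups without overlap, and 61 differed by at least 2-fold. Unspliced were 53 of them, or 2.92% of the 1817 unspliced lncRNAs tested, against 13 or 3.72% of the 349 spliced ones. Groups did not overlap for 299 tested members (13.8%), against 11.7% in the table. Before adjustment, 464 of the tested lncRNAs (21.4%) had a p under 0.05, against 17.9% in the table. Scaled by the totals of the gene table, which put the median of all lncRNAs at -0.12 (log2), the count was 68 with 34 in each direction. The balance of directions also turned with the libraries used: in 5 of 8 cases in which 1 library was left out, falls outnumbered rises. These were GK 7 (6 higher, 8 lower), GK 8 (6 and 9), control 10 (8 and 12), control 7 (13 and 24) and control 9 (21 and 23). Without GK 10 there were 15 higher and 11 lower, without control 8 there were 18 and 13, and without GK 9 there were 83 and 58.

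In the authors' deposited table, 123 of these lncRNAs were called (2.66%, against 3.14% of the table), 81 up and 42 down in GK. Of those, 44 were also among the 66, and 57 had too few counts for the test here. DESeq2 called 171 of these lncRNAs, and all 66 were among them. Over the whole lncRNA table it called 798 of the 11616 it tested, or 6.87%.

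**Figure D2:**
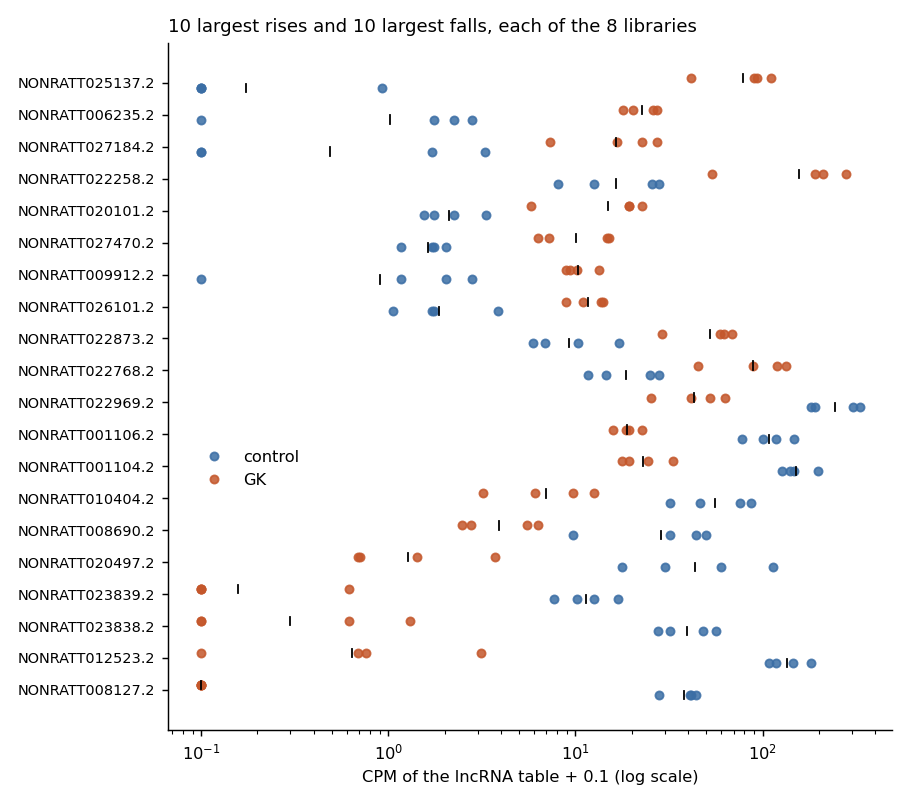
CPM of the lncRNA table plus 0.1 (horizontal, log scale) in each control (blue) and GK (orange) library for the 10 largest rises and 10 largest falls, with the mean of the log values as a black tick. The 20 transcripts were picked from those whose groups do not overlap, so the groups are apart by choice. NONRATT008127.2 was at 0 counts in the 4 GK libraries.

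The largest falls were transcripts with few or no counts in GK. NONRATT008127.2 (chr13:12298543-12298816, unspliced, 274 bases), 2078096 bases from its nearest listed gene Cntnap5a, had 76, 50, 82 and 58 counts in the controls and 0 in every GK library. It was thus at least 85.9-fold lower in GK (adjusted p = 0.00305), where the bound takes 3 counts over the GK group. NONRATT012523.2 (chr17:57130066-57130600) had 273, 218, 219 and 225 counts in controls and 5, 1, 0 and 1 in GK, a log2 fold change of -6.95 ± 0.66 (adjusted p = 0.00305). Both were far below every control in all 4 GK libraries, at 0 to 5 counts.

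NONRATT020497.2 (chr4:85349619-85351645), 20257 bases from Crhr2, a receptor for urocortins, had 33, 36, 210 and 124 counts in controls and 1, 1, 7 and 2 in GK (log2 fold change -5.06 ± 0.77, adjusted p = 0.0153). Library 9 was highest in both groups, and Crhr2 had a log2 fold change of -0.95 ± 0.40 (adjusted p = 0.168). NONRATT010404.2, 4589 bases from Lrp10, a lipoprotein receptor relative, fell by 2.94 ± 0.48 on the log2 scale while Lrp10 had 0.28 ± 0.17 (adjusted p = 0.0186 and 0.322). NONRATT008690.2, 2189 bases from the adhesion molecule Cntn2, fell by 2.98 ± 0.56 (adjusted p = 0.0294), and Cntn2 fell by 2.77 ± 0.49 (adjusted p = 0.019).

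A cluster on chromosome 1, 67752 bases or more from its nearest listed gene, held changes in both directions. NONRATT001104.2 (chr1:175976695-175980552) had 127, 198, 140 and 147 CPM (of the lncRNA table) in controls and 19.3, 17.7, 24.3 and 33.2 CPM in GK. NONRATT001106.2 (chr1:175981027-175981783) fell likewise, from 111 ± 29.6 to 19.0 ± 2.77 CPM (SD, n = 4 each), and NONRATT001107.2 (chr1:175981813-175982486) from 133 ± 25.9 to 25.5 ± 4.28 CPM. Their log2 fold changes were -2.69 ± 0.27, -2.54 ± 0.25 and -2.38 ± 0.22, each with an adjusted p of 0.00305.

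NONRATT001105.2 (chr1:175977552-175979270), which lies within the span of NONRATT001104.2, went the other way. It had 2, 4, 3 and 13 counts in controls and 38, 68, 22 and 60 in GK, a log2 fold change of 3.17 ± 0.60 (adjusted p = 0.0308). A further 2 spliced transcripts cover nearly the same span. NONRATT001103.2 had 42, 44, 41 and 0 counts in controls and 69, 73, 62 and 73 in GK (log2 fold change 1.05 ± 0.82, adjusted p = 0.55), and NONRATT001102.2, too low for the test, had 10, 9, 10 and 7 in controls and 0, 4, 0 and 4 in GK. The 4 belong to 1 merged locus and could share reads, so how counts were divided among them is uncertain. These 2, and also NONRATT001105.2 and NONRATT001107.2, were named after their values were seen.

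The largest rise was that of NONRATT025137.2 (chr6:101277446-101280436, 2991 bases, unspliced), 252082 bases from Gphn, the scaffold protein of inhibitory synapses. It had 0, 1, 0 and 0 counts in controls and 183, 152, 80 and 140 in GK, a ratio of 573 (95% interval 102 to 22700, for counting error only; adjusted p = 0.00175). Gphn had a log2 fold change of 0.49 ± 0.24 (adjusted p = 0.232). NONRATT006235.2 (chr10:101554166-101555833) lies between Sox9, a transcription factor of cartilage and of many progenitor cells, and the zinc transporter gene Slc39a11, at 198997 bases from the latter. It had 4, 2, 5 and 0 counts in controls and 43, 46, 39 and 27 in GK (log2 fold change 3.78 ± 0.57, adjusted p = 0.0141).

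Other rises lay next to a gene. NONRATT022258.2 (chr5:63821761-63822890), 124 bases from Nr4a3, an orphan nuclear receptor of the immediate early response, had 8.02 to 28.0 CPM in controls and 210, 278, 53.8 and 190 CPM in GK. GK library 9 was the lowest of its group, yet above all controls. The log2 fold change was 3.30 ± 0.58 (adjusted p = 0.0237), and that of Nr4a3 was 3.57 ± 0.53 (adjusted p = 0.0123). NONRATT022768.2, 24543 bases from Ece1, the endothelin converting enzyme, rose by 2.30 ± 0.41 on the log2 scale (adjusted p = 0.0268), while Ece1 had 0.17 ± 0.14 (adjusted p = 0.44).

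Another 4 rises, of 2.51 to 3.78 on the log2 scale, had nearest genes with smaller or opposite log2 fold changes. NONRATT027184.2, 581 bases from Pacsin2, a membrane-bending protein, rose by 3.78 ± 0.79 (adjusted p = 0.0428), and Pacsin2 had 0.63 ± 0.20 (adjusted p = 0.0863). NONRATT009912.2, 203 bases from Rell1, a receptor relative, rose by 2.70 ± 0.50 (adjusted p = 0.0294), and Rell1 rose by 0.87 ± 0.18 (adjusted p = 0.0294). NONRATT026101.2, 169 bases from Nol12, a nucleolar protein, rose by 2.51 ± 0.41 (adjusted p = 0.0186), and Nol12 had 0.23 ± 0.23 (adjusted p = 0.538). NONRATT027470.2, 18470 bases from Fbxl12, an F-box protein, rose by 2.71 ± 0.44 (adjusted p = 0.0184), and Fbxl12 had -0.28 ± 0.13 (adjusted p = 0.201). Of the 20 largest changes, 7 falls and 2 rises stayed past the threshold under each of the 15 other settings in which they were fitted.

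A further set was seen in 1 group only but mostly too low for a test. Of the 4630 transcripts, 10 had counts in all 4 controls and none in GK, of which NONRATT008127.2 was tested. Another 16 had counts in all 4 GK libraries and none in controls. The like counts for the rest of the lncRNA table are not given here, so these numbers are no trait of this class. The best covered of the 16, NONRATT001894.2 (chr1:277322984-277325841), had 67, 37, 7 and 31 counts in GK, at least 48.9-fold higher than in controls. NONRATT022004.2 (chr5:949937-950261), in the region of Pi15 at 130611 bases, had 5, 8, 11 and 10 counts in GK, at least 11.7-fold higher. Both were picked for this pattern, so no test is given.

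Most lncRNAs had the same direction as the gene next to them in GK against control. In 1966 pairs both were tested, and 1449 pairs (73.7%) had the same direction, although only 50.9% of the lncRNAs and 51.7% of the genes pointed up. Both values come from the same 8 libraries, so the pairs share them, and the share is a description. It was 68.3% for catalogue lncRNAs over genes, 87.9% for Ensembl and 67.5% for assembled lncRNAs. Catalogue lncRNAs over genes were paired with a gene that they overlap, and Ensembl and assembled ones could be too, so the classes differ in kind of pair. Across the 1966 pairs Spearman's correlation of the log2 fold changes was 0.60. Pairs of which neither passed the test had the same direction in 72.8% of cases.

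The share with the same direction was lower at longer distances. It was 76.4% of 656 pairs within 1000 bases, 75.2% of 804 at 1000 to 5000, 71.8% of 273 at 5000 to 20000, 67.9% of 159 at 20000 to 100000 and 52.7% of 74 beyond. This correlation fell over the same steps from 0.70 to 0.65, 0.50, 0.36 and 0.15. For 1471 lncRNAs the gene on the other side was tested too: the nearest gene had the lncRNA's direction in 72.2% and the other in 54.2%, while the 2 genes shared a direction with each other in 49.5%. The nearest gene lay at a median of 1770 bases and the other at 24168. Unspliced lncRNAs shared the direction of their gene in 75.2% of 1668 pairs and spliced ones in 65.1% of 298. Without strand, a separate RNA and a longer form of the neighbouring gene cannot be told apart.

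**Figure D3:**
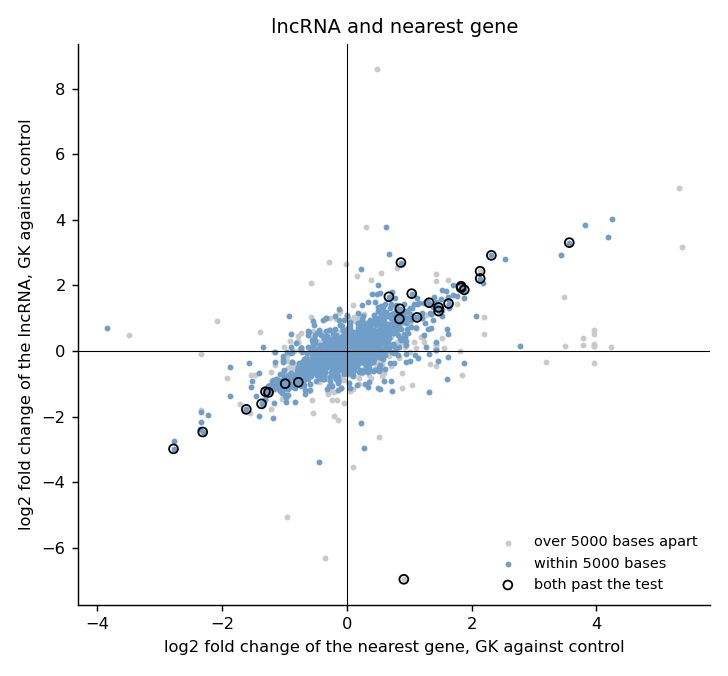
Log2 fold change of each lncRNA (vertical) against that of its nearest gene (horizontal), GK against control, for the 1966 tested pairs. Blue points lie within 5000 bases of the gene, grey points farther, and rings mark the 26 pairs in which both passed the test. All rings but 1, the Crem pair at the bottom, lie in the quadrants of shared direction.

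The libraries of 1 group also varied together for the pairs. After the mean of its group was taken from each log2 value, the correlation between a lncRNA and its nearest gene over the 8 libraries had a median of 0.46 (quartiles -0.003 and 0.78). By distance the median was 0.53 within 1000 bases, 0.53 at 1000 to 5000, 0.28 at 5000 to 20000, 0.22 at 20000 to 100000 and 0.14 beyond. With both flanking genes tested it was 0.44 for the nearest and 0.13 for the other. Libraries 9 took part in this: without them the median over all pairs was 0.32, and the 2 flanks had 0.31 and 0.069. The distance order of the medians did not change. These correlations share libraries and tissue makeup and carry no test.

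**Figure D4:**
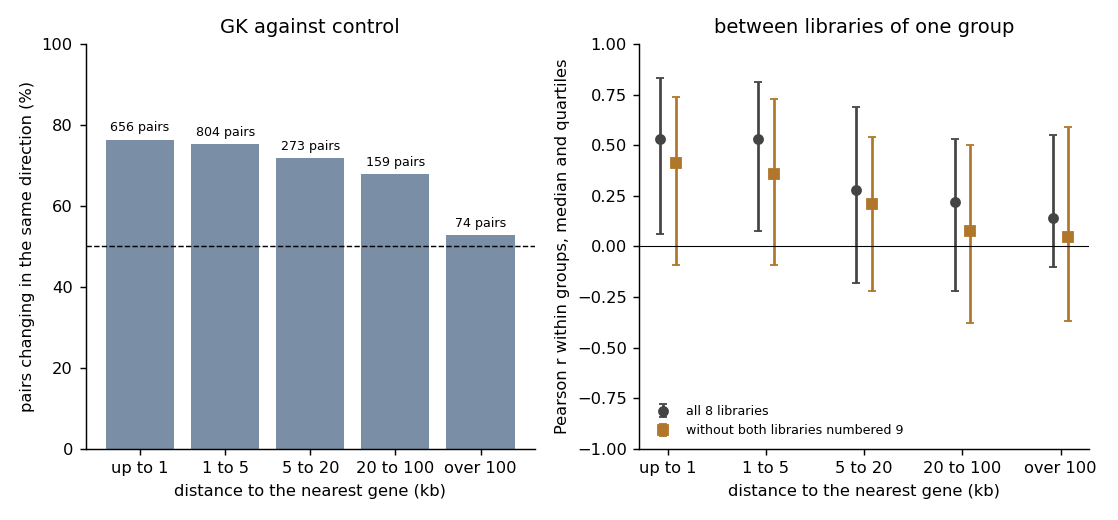
Left, share of pairs with the same direction in GK against control by distance to the nearest gene in kilobases, with 50% dashed. Right, median (point) and quartiles (bar) of the correlation within groups for all 8 libraries and without both libraries numbered 9. Both fall with distance, from 76.4% to 52.7% and from 0.53 to 0.14.

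Among the 66 changed lncRNAs, 57 had a tested nearest gene, 50 with the same direction. In 26 pairs both passed the test, 17 with both higher, 8 with both lower and 1 opposite. Of these 26 pairs, 23 were within 5000 bases, as were 44 of the 66 changed lncRNAs. Of all 1966 tested pairs, 656 lay within 1000 bases and 804 at 1000 to 5000. In 21 of the 25 pairs of shared direction the 2 log2 fold changes differed by less than 0.5. Both values come from the same libraries, so neither is independent evidence for the other.

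Of the genes that rose with their lncRNA, Syt7 is a calcium sensor of exocytosis. NONRATT001547.2 (chr1:226495378-226496373), 2001 bases from it, had 25.7, 26.6, 22.1 and 25.1 CPM in controls and 67.1, 75.7, 75.5 and 53.2 CPM in GK. The controls lay close together and every GK library was above them. The log2 fold changes were 1.45 ± 0.19 for the lncRNA (adjusted p = 0.00914) and 1.63 ± 0.17 for Syt7 (adjusted p = 0.0036), whose levels were 4.53 to 6.64 CPM of the gene table in controls and 15.8 to 19.4 in GK.

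Lrrc8b, a subunit of the volume-regulated anion channel whose promoter is printed above, rose with NONRATT009708.2 (chr14:5414872-5416703), 2038 bases away. The lncRNA had 85.6, 103, 79.8 and 48.8 CPM in controls and 418, 335, 159 and 335 CPM in GK, with GK 9 the lowest of its group. Lrrc8b had 23.6, 23.9, 18.8 and 16.9 CPM in controls and 90.3, 87.0, 36.8 and 82.2 CPM in GK, again with GK 9 lowest. The log2 fold changes were 1.98 ± 0.34 and 1.83 ± 0.28 (adjusted p = 0.0224 and 0.013). NONRATT009710.2, named after its values were seen, lies 22998 bases from the same gene and rose by 1.93 ± 0.39 (adjusted p = 0.041).

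Itpkb, a kinase of inositol trisphosphate with its promoter also shown, lies 117 bases from NONRATT008513.2 (chr13:98708266-98710430). The lncRNA had 179, 233, 205 and 181 CPM in controls and 450, 407, 356 and 360 CPM in GK. The log2 fold changes were 0.98 ± 0.17 for the lncRNA (adjusted p = 0.0224) and 0.84 ± 0.14 for Itpkb (adjusted p = 0.0165). NONRATT020101.2, 1511 bases from the RING finger gene Rnf32, rose by 2.92 ± 0.50 (adjusted p = 0.0222) and Rnf32 by 2.32 ± 0.33 (adjusted p = 0.0112). NONRATT022873.2 rose by 2.43 ± 0.41 and the gene model AABR07050487.1, 6830 bases away, by 2.14 ± 0.29 (adjusted p = 0.0211 and 0.00912).

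Pi15, a secreted peptidase inhibitor, fell with its lncRNA. NONRATT022969.2 (chr5:786865-787840), 2993 bases from it, had 191, 305, 181 and 330 CPM in controls and 25.4, 41.4, 62.6 and 52.5 CPM in GK. Pi15 had 48.9, 61.2, 35.3 and 68.9 CPM in controls and 6.64, 10.6, 16.6 and 9.36 CPM in GK. GK library 9 was the highest of its group for both. The log2 fold changes were -2.47 ± 0.34 and -2.31 ± 0.31 (adjusted p = 0.00939 and 0.00912).

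**Figure D5:**
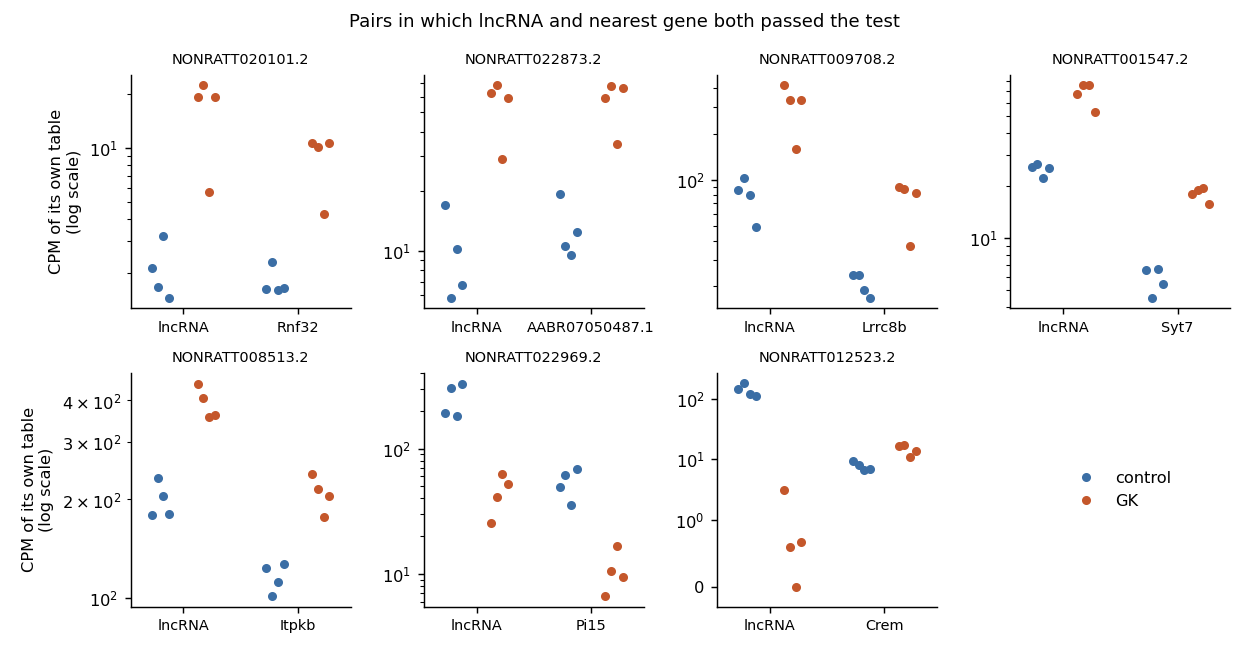
CPM (vertical, log scale, each feature scaled to the total of its own table) in the 4 control (blue) and 4 GK (orange) libraries, for the 6 pairs of shared direction with the lowest p and the opposite pair. The lncRNA is on the left of each panel and its nearest gene on the right. In the first 6 panels both are on the same side, and in the panel of NONRATT012523.2 the lncRNA fell while Crem rose.

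The opposite pair was that of NONRATT012523.2, described above among the largest falls, and Crem, a modulator of cyclic AMP response elements, 39178 bases away. Crem had 9.40, 7.86, 6.64 and 6.89 CPM in controls and 16.6, 17.0, 11.0 and 13.5 CPM in GK, with no overlap. It rose by 0.92 ± 0.20 on the log2 scale (adjusted p = 0.0319), while the lncRNA was at 0 to 5 counts in GK.

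Of the other pairs of shared direction, a few named after their values were seen show the range. NONRATT007014.2, 2567 bases from Lrrc58, was the most abundant changed lncRNA. It had 62.1, 42.8, 49.3 and 56.3 FPKM in controls and 133, 129, 79.8 and 128 FPKM in GK, a log2 fold change of 1.47 ± 0.29 (adjusted p = 0.0338) beside 1.32 ± 0.23 for Lrrc58 (adjusted p = 0.0184). Rises also paired NONRATT006842.2 with Tiam1, an activator of the GTPase Rac (1.75 and 1.04 on the log2 scale), and NONRATT023323.2 with Megf9 (1.03 and 1.13). Falls paired NONRATT028143.2 with the integrin gene Itga9 (-1.77 and -1.61), NONRATT019591.2 with Bmf, a promoter of cell death (-1.24 and -1.30), and NONRATT024116.2 with the DNA methyltransferase gene Dnmt3a (-0.95 and -0.77).

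A pair of abundant lncRNAs, also named after their values were seen, lay beside a hormone receptor gene and a growth factor gene and did not pass the test. NONRATT015099.2, 2826 bases from Npr3, the clearance receptor of natriuretic peptides, had 11.9, 10.6, 28.0 and 5.33 FPKM in controls and 129, 98.7, 31.7 and 50.1 FPKM in GK. The groups did not overlap, and the log2 fold change was 2.82 ± 0.62 (adjusted p = 0.052), beside 2.54 ± 0.61 for Npr3 (adjusted p = 0.0451). NONRATT025700.2, 2547 bases from Igf1, the growth factor gene, had 119, 26.7, 211 and 140 FPKM in controls and 32.6, 31.4, 67.9 and 17.3 FPKM in GK, overlapping through control 8 (log2 fold change -1.46 ± 0.48, adjusted p = 0.151). Igf1 itself had -1.31 ± 0.42 (adjusted p = 0.0899).

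Of the 5 tested transcripts farthest from a listed gene, NONRATT008127.2 was the one past the test. NONRATT018334.2, 1187347 bases from Lrrc55, had 15, 32, 38 and 32 counts in controls and 30, 33, 49 and 28 in GK. NONRATT028411.2 had 61 to 99 counts in controls and 55 to 75 in GK (log2 fold change -0.18 ± 0.21, adjusted p = 0.701). NONRATT023380.2 and NONRATT011177.2 had log2 fold changes of 0.57 ± 0.48 and 0.38 ± 0.26 (adjusted p = 0.586 and 0.48). Their groups overlapped in each case. Against 2.74% of the whole lncRNA table, the share of tested lncRNAs that changed was 2.04% within 1000 bases (14 of 686), 3.53% at 1000 to 5000 (30 of 851), 1.55% at 5000 to 20000 (5 of 322), 6.10% at 20000 to 100000 (13 of 213) and 4.26% beyond (4 of 94). The 13 include NONRATT001104.2, NONRATT001105.2, NONRATT001106.2 and NONRATT001107.2, which lie in the cluster on chromosome 1 described above. The shares had no steady order with distance, and their differences were not tested.

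The authors' deposited target predictions list 1213 pairs for 77 of these lncRNAs, each of the 77 called in the authors' deposited table, of which 68 pairs are neighbours in position (cis) at up to 9596 bases. In 50 of the 68 the target is the nearest gene found here. Both partners were tested in 40 cis pairs, and 36 had the same direction. These pairs thus come from changed lncRNAs, for which the like count was 50 of 57 here, and not from all pairs, of which 73.7% had the same direction.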

How the data were processed

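Thoracic aorta RNA of 4 control Wistar and 4 GK rats was analysed from deposited tables. Per the file headers they hold read counts and FPKM for each gene and lncRNA and the authors' edgeR p-values and q-values; the counter is not given. The submitters' processing notes name Bowtie 0.12.2 and the mouse builds mm8 and mm9, without a role. Build and aligner of the rat loci: not given in the sources used here. Both deposited count tables list only features with a count. The deposited loci carry no strand.

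Membership, merged loci and nearest genes came from deposited loci (any shared base; distance between nearest edges). Counts were tested with edgeR 4.0.16 (filterByExpr, TMM, glmQLFit, glmQLFTest, group only) on each whole table, with Benjamini-Hochberg adjustment over 11683 lncRNAs and 13673 genes and SE from the fold change and F; calls have adjusted p under 0.05. CPM uses each table's own totals. The procedure was tested on simulated data. Alternatives were DESeq2 1.42.0, other filters, other scalings, each library left out, and the replicate block. No 2 libraries agreed in more than 3.52% of tested counts.

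Members, lists and rules were chosen with earlier results of these data known. Named were, 1 per locus, the 10 largest rises and 10 largest falls (adjusted p under 0.05, no overlap, log2 CPM of at least 1), the 8 highest by FPKM, pairs with both called (6 of shared direction and up to 6 opposite with the lowest larger adjusted p), their nearest genes, the 5 farthest tested members and any locus with 3 or more called members, of which there was 0. Neighbour lists used gene ontology terms for transcription factors, extracellular matrix, receptors and channels, and mitochondrial genes. Product descriptions could also place a gene among the transcription factors. Olfactory, vomeronasal and taste receptors (6 of 3433 nearest genes, 0.175%) were taken by gene symbol. Cell type lists were smooth muscle, endothelial, fibroblast, adipocyte, brown adipocyte, macrophage, nerve and Schwann cell, skeletal and cardiac muscle, and liver; Pecam1 and Elovl3 are not in the table, and Ttr was under 1 CPM in every library. A few transcripts that the rule names are not reported here. Intervals cover counting error only.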

Additional observations from a re-analysis of the deposited data

Results flagged for a closer look

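In 3 of 74 groups of 4 libraries looked at, 1 library lay far from the other 3 of its group, and chance sets apart about 1 group in 20. NONRATT025137.2, the largest rise, had 0.83 CPM in control library 8 and 0 in the other 3 controls. NONRATT023839.2 had 0.517 CPM in GK library 9 and 0 in the other 3 GK libraries. Both are single counts. NONRATT003473.2 had 15100 CPM in GK library 9, against 23500 CPM in the nearest of the other 3, but in FPKM GK 9 (615) lay beside GK 10 (626).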

How the results depend on the processing

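The median total was 66 counts, and 2464 of 4630 lncRNAs had too few for the test. The 66 changed lncRNAs became 171 with DESeq2 (95 higher, 76 lower), 34 without the low-count filter, 117 without both libraries numbered 9, and 14 to 141 with 1 library left out. The 110 changed nearest genes became 305, 67, 331 and 10 to 383 under the same settings, 296 with the replicate block, and 52 at a 2-fold minimum. The replicate block left 54 lncRNAs called, 37 of them among the 66, and 15 of the 23 named ones; same-numbered libraries did not all deviate together (correlations 0.091, 0.051, 0.27 and -0.034 for numbers 7 to 10), and not every library correlated best with its own number, so the numbers were not taken as pairs. Of the 23 named lncRNAs 10 to 23 stayed called with 1 library left out, and none changed direction. The share of pairs with the same direction, 73.7%, ranged from 71.5% to 72.8% with 1 library left out. The median abundance of 0.845 FPKM was 3.67 over tested lncRNAs, and 2048 of the 4630 had no gene within 5000 bases. The causes were not tested.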
